A study of Mus musculus with 6 samples.

Results

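Txnip, the alpha-arrestin genes Arrdc1, Arrdc2, Arrdc3 and Arrdc4, and Mlxip were followed in mouse leukaemia cells of the T lineage (T-ALL, T-cell acute lymphoblastic leukaemia) given the histone deacetylase inhibitor panobinostat. They were taken by symbol, and 5 of the 6 listed genes were found among 13185 gene rows. No expression value is given for Arrdc4, and only its promoter letters are described. The set was chosen by gene family, around the high Txnip level of the panobinostat libraries, and with the log2 fold changes of this contrast already known. The values of these genes in the 2 groups are therefore a description and carry no test.

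The 3 panobinostat libraries came from Notch1-driven T-ALL cells exposed to 25 nM of the drug for 2 h, and the 3 untreated libraries from the same kind of cells without it. In both groups the cells were stimulated through the T cell receptor by plate-bound anti-CD3 at 2.5 ug/mL and received interleukin 2 at 100 U/mL. The sources used here did not say how Notch1 was activated, how many leukaemias or mice were used, or whether replicate libraries stem from different cultures. The sample labels carry the same replicate number throughout, so the library numbers used here are those of the columns of the table. P-values thus reflect no more than the spread among these 6 libraries, and that spread may be technical. RNA was read by 3′ mRNA sequencing, which counts the polyadenylated ends of transcripts, and the deposited values were log2 CPM (counts per 1000000 reads).

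TXNIP binds reduced thioredoxin and blocks it, and it also brings glucose transporters in from the cell surface, so that a cell with more TXNIP takes up less glucose. It is the best known alpha-arrestin, a family of adaptor proteins with an arrestin fold whose tails carry short proline and tyrosine motifs for ubiquitin ligases of the NEDD4 family. Mlxip encodes MondoA, a transcription factor that pairs with MLX, responds to glucose 6-phosphate and binds carbohydrate response elements in front of Txnip and Arrdc4. TXNIP has long been known as a transcript raised by histone deacetylase inhibitors in transformed cells.

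The promoters of the 3 genes that stood higher in every panobinostat library are shown because the factors reported to act on Txnip bind such letters. Each is the 250 bases before the annotated start in RefSeq, build GRCm38.p6, read 5′ to 3′ on the strand of the gene: chr3:96557707-96557956 (plus strand) for Txnip, chr5:123394548-123394797 (plus strand) for Mlxip and chr8:70839721-70839970 (minus strand) for Arrdc2. Capitals mark CCAAT or its reverse ATTGG, the core bound by the trimer NF-Y. In Txnip they also mark a carbohydrate response element and GTAAACA, the reverse of the forkhead core TGTTTAC.
Txnip: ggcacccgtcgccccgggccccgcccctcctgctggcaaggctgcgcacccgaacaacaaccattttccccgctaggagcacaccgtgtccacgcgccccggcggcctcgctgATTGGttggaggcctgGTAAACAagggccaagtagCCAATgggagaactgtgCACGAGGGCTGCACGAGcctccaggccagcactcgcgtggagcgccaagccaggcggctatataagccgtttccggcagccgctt
Mlxip: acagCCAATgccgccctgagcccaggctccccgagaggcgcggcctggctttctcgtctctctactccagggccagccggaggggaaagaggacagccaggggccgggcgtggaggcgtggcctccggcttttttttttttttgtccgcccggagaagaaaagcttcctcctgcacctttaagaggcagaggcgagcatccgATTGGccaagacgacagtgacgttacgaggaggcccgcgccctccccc
Arrdc2: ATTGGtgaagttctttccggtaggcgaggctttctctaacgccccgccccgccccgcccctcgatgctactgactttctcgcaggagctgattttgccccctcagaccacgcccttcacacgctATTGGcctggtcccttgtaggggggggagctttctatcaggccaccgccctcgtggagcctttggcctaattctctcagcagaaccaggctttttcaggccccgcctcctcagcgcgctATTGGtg

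The Txnip window held a CCAAT match starting 102 bases before the start and an ATTGG match 137 bases before it. The carbohydrate response element (a doubled E-box-like site), searched on both strands as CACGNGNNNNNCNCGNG with N for any base, was matched once in Txnip, from 85 bases before the start. The forkhead core was matched once, from 121 bases before it, so these matches lay within a short stretch. Among 32851 such windows of all genes, 0.280% held the carbohydrate response element, 3.17% the forkhead core on either strand and 33.9% a CCAAT or ATTGG match, with 10.1% holding more than one. Mlxip held 2 of the latter, Arrdc2 held 3 and Arrdc1 held 0. Windows 1, 2 and 3 of Arrdc3, of which 1 and 3 overlap, held 1, 0 and 1 such matches. Arrdc4 held 6 in its window (chr7:68749239-68749488, minus strand) and 1 E-box CACGTG, which 6.02% of all windows held. The element as spelled here was not matched in the windows of Mlxip and Arrdc1 to Arrdc4. These motifs were chosen after the windows had been looked at, and a match is a description of letters, not of binding.

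Txnip, at chromosome 3, 96557957 to 96561883 on the plus strand, stood at 6.41, 6.31 and 6.88 log2 CPM in panobinostat libraries 1 to 3, against 4.77, 3.24 and 3.55 log2 CPM in untreated libraries 1 to 3. All panobinostat libraries were above all untreated ones, with a gap of 1.54 on the log2 scale between the nearest pair. The mean was 6.53 ± 0.30 log2 CPM in panobinostat and 3.86 ± 0.81 log2 CPM in untreated libraries (SD, n = 3 each). The log2 fold change was 2.68 ± 0.37 (SE), a 6.40-fold difference, and only 0.119% of the 12554 tested genes had a higher one. The untreated libraries differed widely among themselves: 4.28% of tested genes had a larger untreated SD. Untreated library 1 was the high one, with an estimated 212 Txnip reads (exact 95% Poisson interval 184 to 243) against 64 (49.3 to 81.7) and 77 (60.8 to 96.2) in untreated libraries 2 and 3. Without untreated library 1 the log2 fold change was 3.14. These intervals cover counting error only and leave out the error of the read estimates. They are also too narrow where reads are PCR copies, which were not marked by molecular identifiers.

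The Txnip locus is also annotated with an antisense gene, Gm15441, which covers all 3927 bases of Txnip on the opposite strand in GENCODE M21. The strand setting of the authors' counting was not given in the sources used here, so reads of Gm15441 and of Txnip cannot be told apart. No annotated gene on either strand overlapped Arrdc1 or Arrdc2, and the genes that overlapped Arrdc3 and Mlxip did not cover their 3′ ends.

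Mlxip, at chromosome 5, 123394798 to 123457932 on the plus strand, stood at 4.51, 4.70 and 4.74 log2 CPM in panobinostat libraries 1 to 3, against 3.09, 2.75 and 3.07 log2 CPM in untreated libraries 1 to 3. The groups were apart by 1.42 on the log2 scale, and 52.2% of tested genes had a larger untreated SD than Mlxip. The mean was 4.65 ± 0.12 log2 CPM in panobinostat and 2.97 ± 0.19 log2 CPM in untreated libraries (SD, n = 3 each), a log2 fold change of 1.68 ± 0.15 (SE) or 3.21-fold. Mlxip, the gene of the glucose-responsive activator of Txnip, was higher in the same libraries as Txnip. Whether Mlxip bears on the Txnip level here was not tested. Of tested genes, 1.32% had a higher log2 fold change than Mlxip. Behind these values were an estimated 137 to 202 reads per panobinostat library and 45 to 66 reads per untreated library.

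**Figure D1:**
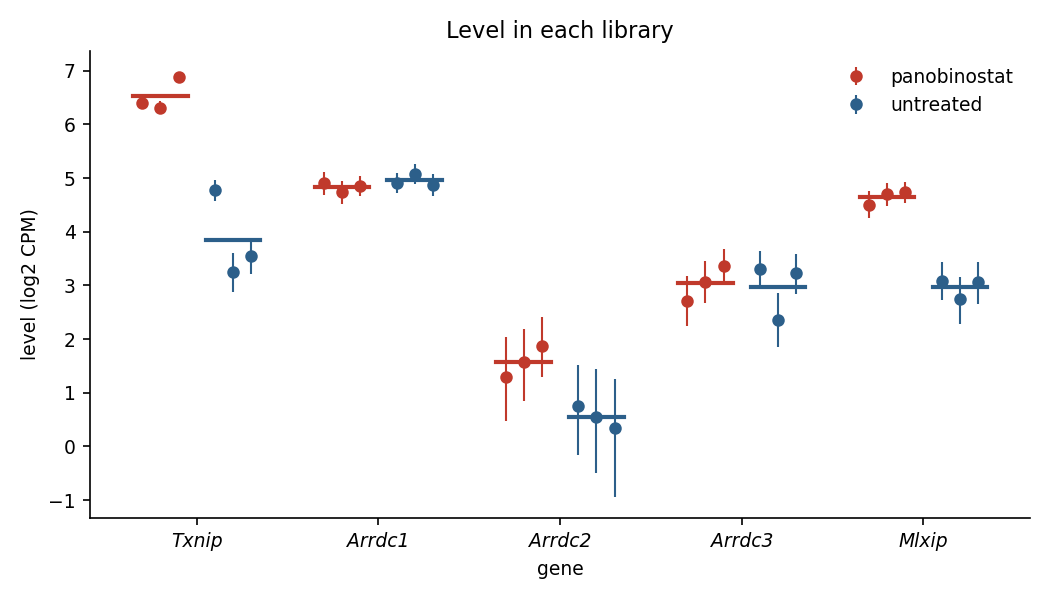
Level of each gene in log2 CPM on the vertical axis, with 1 point per library (panobinostat red, untreated blue), vertical bars for the exact 95% Poisson interval of the estimated reads and horizontal lines for group means (n = 3 each). Txnip, Mlxip and Arrdc2 are higher in all panobinostat libraries, and Arrdc1 and Arrdc3 overlap between the groups.

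Arrdc2, at chromosome 8, 70835129 to 70839720 on the minus strand, is among the less studied alpha-arrestins. It stood at 1.30, 1.57 and 1.86 log2 CPM in panobinostat libraries 1 to 3, against 0.76, 0.55 and 0.35 log2 CPM in untreated libraries 1 to 3. The groups did not overlap, with a gap of 0.54 on the log2 scale. The mean was 1.58 ± 0.28 log2 CPM in panobinostat and 0.55 ± 0.20 log2 CPM in untreated libraries (SD, n = 3 each), a log2 fold change of 1.02 ± 0.29 (SE) or 2.03-fold. Few reads lay behind this: an estimated 15 to 28 per panobinostat library and 8 to 13 per untreated library. The Poisson interval of the lowest panobinostat library (8.40 to 24.7 reads) and that of the highest untreated library (6.92 to 22.2 reads) overlapped widely. With a pseudocount of 1 CPM the log2 fold change was 0.69.

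Arrdc3, at chromosome 13, 80883384 to 80896042 on the plus strand, encodes an adaptor that acts on adrenergic receptors and integrins and limits energy use in fat. It stood at 2.72, 3.07 and 3.35 log2 CPM in panobinostat libraries 1 to 3, against 3.31, 2.36 and 3.23 log2 CPM in untreated libraries 1 to 3. The groups overlapped. The mean was 3.05 ± 0.32 log2 CPM in panobinostat and 2.97 ± 0.53 log2 CPM in untreated libraries (SD, n = 3 each). The difference of 0.08 ± 0.29 (SE) on the log2 scale was smaller than the spread within either group. It was -0.22 without untreated library 2, which was the low one, and -0.07 without panobinostat library 3.

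Arrdc1, at chromosome 2, 24925352 to 24935252 on the minus strand, encodes the alpha-arrestin that recruits the ESCRT machinery to the plasma membrane and drives the budding of small vesicles there. It stood at 4.90, 4.74 and 4.86 log2 CPM in panobinostat libraries 1 to 3, against 4.91, 5.08 and 4.88 log2 CPM in untreated libraries 1 to 3. The libraries of the groups overlapped. The mean was 4.83 ± 0.09 log2 CPM in panobinostat and 4.96 ± 0.11 log2 CPM in untreated libraries (SD, n = 3 each), a log2 fold change of -0.12 ± 0.11 (SE).

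The 5 genes were thus divided. All panobinostat libraries were above all untreated libraries in 3 of them (Txnip, Arrdc2 and the transcription factor gene Mlxip), against 25.7% of the 12554 tested genes. By limma with a Benjamini-Hochberg adjusted p below 0.05, 3 of the 5 were called higher, where 19.2% of tested genes were, and 0 were called lower, where 19.0% were. Because the genes were chosen with this contrast known, nothing is read from these counts. The Arrdc2 call ended when panobinostat library 2 (log2 fold change 1.03), panobinostat library 3 (0.88), untreated library 2 (1.02) or untreated library 3 (0.92) was set aside.

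**Figure D2:**
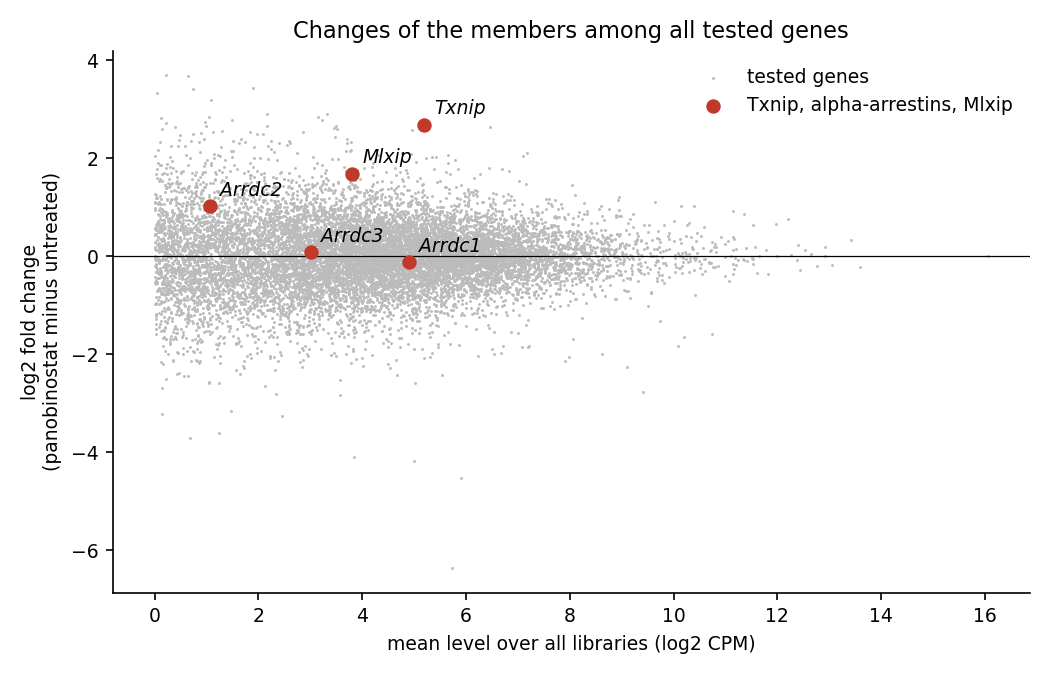
Log2 fold change (panobinostat minus untreated) against mean level in log2 CPM, with 1 grey point for each of the 12554 tested genes and the 5 named genes in red. Txnip lies at the upper edge (2.68), Mlxip (1.68) and Arrdc2 (1.02) lie above the middle of the cloud, and Arrdc1 (-0.12) and Arrdc3 (0.08) lie near 0.

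**Figure D3:**
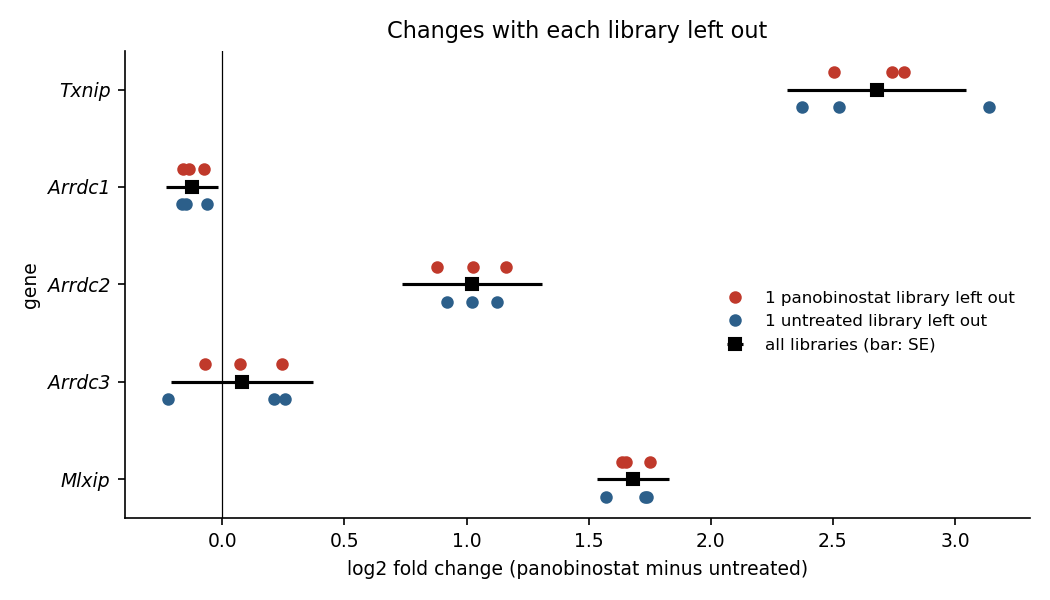
Log2 fold change (panobinostat minus untreated) of each gene with all libraries (square, bar for SE) and with 1 panobinostat (red) or 1 untreated (blue) library left out. Txnip ranges from 2.37 to 3.14 and Mlxip from 1.57 to 1.75, whereas Arrdc3 falls on both sides of 0 (-0.22 to 0.25).

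Facts of the libraries bear on all of these values. Estimated depth was 6012000 to 7592000 reads per panobinostat library and 6596000 to 7742000 reads per untreated library. Untreated library 1, the one with the high Txnip value, correlated more closely with the panobinostat libraries (Pearson r across tested genes 0.945 to 0.947) than untreated libraries 2 and 3 did (0.923 to 0.941). All 12 T cell markers sought were in the table, and their summed level was 1353 to 1384 CPM in panobinostat and 1713 to 1862 CPM in untreated libraries. Markers of other blood cells were present as well. Myeloid markers (6 of 7 found) summed to 794 to 865 CPM in panobinostat and 1001 to 1182 CPM in untreated libraries, and B cell markers (4 of 5 found) to 37.1 to 37.7 CPM in panobinostat and 45.4 to 53.2 CPM in untreated libraries. Erythroid markers (6 of 6) summed to 6297 to 6700 CPM in panobinostat and 6686 to 7942 CPM in untreated libraries. The T cell, B cell and myeloid sums were lower in all panobinostat libraries, and the erythroid sums overlapped. Single markers differed: Notch1 (0.34 ± 0.10, limma adjusted p = 0.0272) and the erythroid Hbb-bs (0.35 ± 0.10, limma adjusted p = 0.0237) were called higher. Called lower were 6 of 12 T cell, 4 of 6 myeloid, 2 of 4 B cell and 3 of 6 erythroid markers, against 19.0% of all tested genes. The part of these cells in the results was not tested. In bulk RNA, fewer cells of a type and less RNA per cell cannot be told apart.

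The genes that work with TXNIP and MondoA were taken as 8 lists by function, with 73 genes measured, meaning among those tested. Of these 22 rose (30.1%) and 15 fell (20.5%) by limma with Benjamini-Hochberg adjustment over all tested genes, against 19.2% and 19.0% of all tested genes. The lists were chosen with earlier results of these data known, so nothing is read from these shares. Without panobinostat library 3, 13 of the list genes rose. In that same fit 1587 of all 12554 tested genes rose, against 2416 with all libraries. A leave-one-out fit is one in which a single library was set aside.

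In the network of MLX and MAX, the partners and relatives of MondoA, 3 genes rose and 2 fell of 9 measured, with a median log2 fold change of 0.20 against -0.0052 for all tested genes. Mlx, the obligate partner of MondoA, stood at 3.84, 4.08 and 4.11 log2 CPM in panobinostat libraries 1 to 3, against 3.66, 3.23 and 3.20 log2 CPM in untreated libraries 1 to 3. The groups were close but did not overlap. Mlx rose by 0.65 ± 0.17 (SE) on the log2 scale (limma adjusted p = 0.0190), which fell short of the threshold in 4 of 6 leave-one-out fits (0.57 to 0.61). Max, the shared partner of MYC and the MXD repressors, rose by 0.91 ± 0.10 (limma adjusted p = 0.000872). The repressor gene Mxd1 rose by 0.54 ± 0.13 (limma adjusted p = 0.0158), a call lost without panobinostat library 2 (0.46). Myc, with few 3′ end counts in these libraries, fell by 2.13 ± 0.48 (limma adjusted p = 0.0107), or by 1.16 with a pseudocount of 1 CPM. Mga, whose protein pairs with MAX and represses E-box genes, fell by 0.44 ± 0.09 (limma adjusted p = 0.00875). Mlxip and Mlx, whose proteins form the MondoA dimer, both had higher levels in all panobinostat libraries. So did 25.7% of the 12554 tested genes.

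Among thioredoxins, their reductases and peroxiredoxins 3 rose and 2 fell of 11 measured (median log2 fold change -0.03). Txn1, the cytosolic thioredoxin that TXNIP binds, stood at 7.48, 7.70 and 7.98 log2 CPM in panobinostat libraries 1 to 3, against 7.19, 6.61 and 6.64 log2 CPM in untreated libraries 1 to 3. All panobinostat libraries were above the untreated ones, and as for Txnip untreated library 1 was the highest of its group. Txn1 rose by 0.90 ± 0.18 (SE) on the log2 scale (limma adjusted p = 0.00704), so the target of TXNIP and Txnip itself were both higher. A pseudogene of thioredoxin, Txn-ps1, is annotated, and how reads were split between such copies is uncertain. The reductase gene Txnrd1, which keeps TXN1 reduced, was at 7.56 ± 0.13 log2 CPM in panobinostat and 7.52 ± 0.09 log2 CPM in untreated libraries (SD, n = 3 each), with a log2 fold change of 0.04 ± 0.09 (SE; limma adjusted p = 0.762). The mitochondrial reductase gene Txnrd2 fell by 0.48 ± 0.16 (limma adjusted p = 0.0485), a call absent from 5 of 6 leave-one-out fits (-0.57 to -0.40). The peroxiredoxin genes Prdx3 (0.46 ± 0.10, limma adjusted p = 0.00992) and Prdx1 (0.49 ± 0.13, limma adjusted p = 0.0201), whose peroxidases draw on thioredoxin, rose. The Prdx1 call was absent from 3 of 6 leave-one-out fits (0.45 to 0.51).

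Among genes of glucose uptake and glucose 6-phosphate, the signal read by MondoA, 4 rose and 2 fell of 11 measured (median log2 fold change -0.0060). The glucose transporter genes divided. Slc2a4, the insulin-responsive transporter, rose at a low level, with 2.68 ± 0.15 log2 CPM in panobinostat and 1.25 ± 0.32 log2 CPM in untreated libraries (SD, n = 3 each; log2 fold change 1.43, SE 0.24, limma adjusted p = 0.00342). Slc2a3, a high-affinity transporter, rose by 0.58 ± 0.12 (limma adjusted p = 0.00846). Slc2a1, the transporter that TXNIP is known to bring in from the surface, stood at 2.34, 2.28 and 2.14 log2 CPM in panobinostat libraries 1 to 3, against 3.61, 2.45 and 2.88 log2 CPM in untreated libraries 1 to 3. The groups did not overlap but untreated library 1 was far above the others, and the log2 fold change of -0.73 ± 0.29 (SE) did not pass (limma adjusted p = 0.0838). Without untreated library 1 it was -0.41 (limma adjusted p = 0.176), and without untreated library 2 it was -0.99 and passed (limma adjusted p = 0.0286). The hexokinase gene Hk2, whose enzyme makes glucose 6-phosphate, was at -0.29 ± 0.10 (limma adjusted p = 0.0565). It was -0.19 without untreated library 1 (limma adjusted p = 0.083), and of 6 leave-one-out fits it passed only in the one without untreated library 2 (-0.35, limma adjusted p = 0.0482). The phosphoglucomutase gene Pgm2 fell by 0.84 ± 0.10 (limma adjusted p = 0.00106) and Gpi1, which turns glucose 6-phosphate into fructose 6-phosphate, fell by 0.47 ± 0.08 (limma adjusted p = 0.00322). Pgm1, the other phosphoglucomutase gene of the list, rose by 0.53 ± 0.16 (limma adjusted p = 0.0328), a call absent from 5 of 6 leave-one-out fits (0.46 to 0.58 in those 5). Pgm1, Akt1, Foxo4 and Foxo3 are given beside their relatives after their values were seen.

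For ubiquitin ligases of the NEDD4 family and their adaptors, which alpha-arrestins recruit, 1 rose and 2 fell of 9 measured (median log2 fold change 0.03). The other 6 did not pass, which does not set this list apart. Among the 12554 tested genes only 19.2% were called higher and 19.0% lower. Itch, the ligase known to mark TXNIP for degradation, was at 5.55, 5.26 and 5.63 log2 CPM in panobinostat libraries 1 to 3, against 5.64, 5.14 and 5.35 log2 CPM in untreated libraries 1 to 3. The groups overlapped, and the log2 fold change was 0.10 ± 0.16 (SE; limma adjusted p = 0.624). Nedd4 was at 0.03 ± 0.08 (limma adjusted p = 0.815). Wwp2 fell by 0.57 ± 0.11 (limma adjusted p = 0.00666), whereas its close relative Wwp1 rose by 0.33 ± 0.10 (limma adjusted p = 0.0326) and Smurf2 fell by 0.46 ± 0.15 (limma adjusted p = 0.0447). The Wwp1 call was absent from 5 and the Smurf2 call from 4 of 6 leave-one-out fits (0.29 to 0.36 for Wwp1, -0.49 to -0.35 for Smurf2).

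Of other genes whose proteins have an arrestin fold, 3 rose and 1 fell of 7 measured (median log2 fold change 0.33). The beta-arrestins, which silence activated G protein-coupled receptors, went apart. Arrb1 stood at 5.22, 5.18 and 5.17 log2 CPM in panobinostat libraries 1 to 3, against 5.89, 6.16 and 5.94 log2 CPM in untreated libraries 1 to 3, without overlap, and fell by 0.81 ± 0.10 (SE; limma adjusted p = 0.00110). Arrb2 rose by 0.33 ± 0.09 (limma adjusted p = 0.0249), a call lost without any 1 of the panobinostat libraries (0.31 to 0.36). Vps26a, a retromer subunit, rose by 0.57 ± 0.13 (limma adjusted p = 0.0112). Sag, the arrestin of rod photoreceptors, rose near the lower end of the tested range, with 1.58 ± 0.25 log2 CPM in panobinostat and -0.28 ± 0.54 log2 CPM in untreated libraries (SD, n = 3 each; log2 fold change 1.87, SE 0.37, limma adjusted p = 0.00704). With a pseudocount of 1 CPM the log2 fold change of Sag was 1.12.

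Of the ESCRT genes that serve vesicle budding by ARRDC1, 3 rose and 1 fell of 9 measured (median log2 fold change 0.23). The ALIX gene Pdcd6ip rose by 0.73 ± 0.14 (limma adjusted p = 0.00537) and the ESCRT-I subunit gene Vps37b by 0.46 ± 0.10 (limma adjusted p = 0.00959). Vps37c rose by 1.39 ± 0.42 (limma adjusted p = 0.0319), a call absent from 5 of 6 leave-one-out fits (1.06 to 1.43 in those 5), and its log2 fold change was 0.80 with a pseudocount of 1 CPM. The ESCRT-0 gene Hgs fell by 0.41 ± 0.09 (limma adjusted p = 0.0109).

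Kinases that act on TXNIP protein were represented by subunits of the energy sensor AMPK, its activator Stk11 and the AKT kinases, of which 3 rose and 2 fell of 9 measured (median log2 fold change -0.22). Within AMPK the regulatory gamma subunit gene Prkag1 fell by 1.01 ± 0.14 (limma adjusted p = 0.00170), while the beta subunit genes Prkab2 (0.70 ± 0.15, limma adjusted p = 0.0101) and Prkab1 (0.46 ± 0.13, limma adjusted p = 0.0235) rose. The Prkab1 call was absent from 4 of 6 leave-one-out fits (0.40 to 0.49). The AKT genes divided: Akt2 fell by 0.73 ± 0.15 (limma adjusted p = 0.00816) and Akt1 rose by 0.65 ± 0.18 (limma adjusted p = 0.0256). The Akt1 call was absent from 4 of 6 leave-one-out fits (0.55 to 0.65 in those 4).

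Of the factors reported at the Txnip promoter, 2 rose and 3 fell of 8 measured (median log2 fold change -0.32). The genes of NF-Y, which binds CCAAT cores such as those printed for Txnip, had lower mean levels in panobinostat libraries. Nfyc stood at 3.52, 3.65 and 3.65 log2 CPM in panobinostat libraries 1 to 3, against 5.07, 5.46 and 5.34 log2 CPM in untreated libraries 1 to 3, far from overlap, and fell by 1.69 ± 0.13 (SE; limma adjusted p = 0.000268). Nfyb fell by 1.05 ± 0.10 (limma adjusted p = 0.000425), and Nfya, the subunit that contacts the CCAAT letters, was at -0.39 ± 0.20 (limma adjusted p = 0.163). Of the forkhead factors, Foxo1 rose by 0.33 ± 0.09 (limma adjusted p = 0.0190), a call lost without panobinostat library 1 (0.30) or 2 (0.32). Foxo4 fell by 0.36 ± 0.12 (limma adjusted p = 0.0475), a call absent from 5 of 6 leave-one-out fits (-0.39 to -0.30 in those 5), and Foxo3 was at 0.07 ± 0.10 (limma adjusted p = 0.647). The heat shock factor gene Hsf1 rose by 0.94 ± 0.19 (limma adjusted p = 0.00709).

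**Figure D4:**
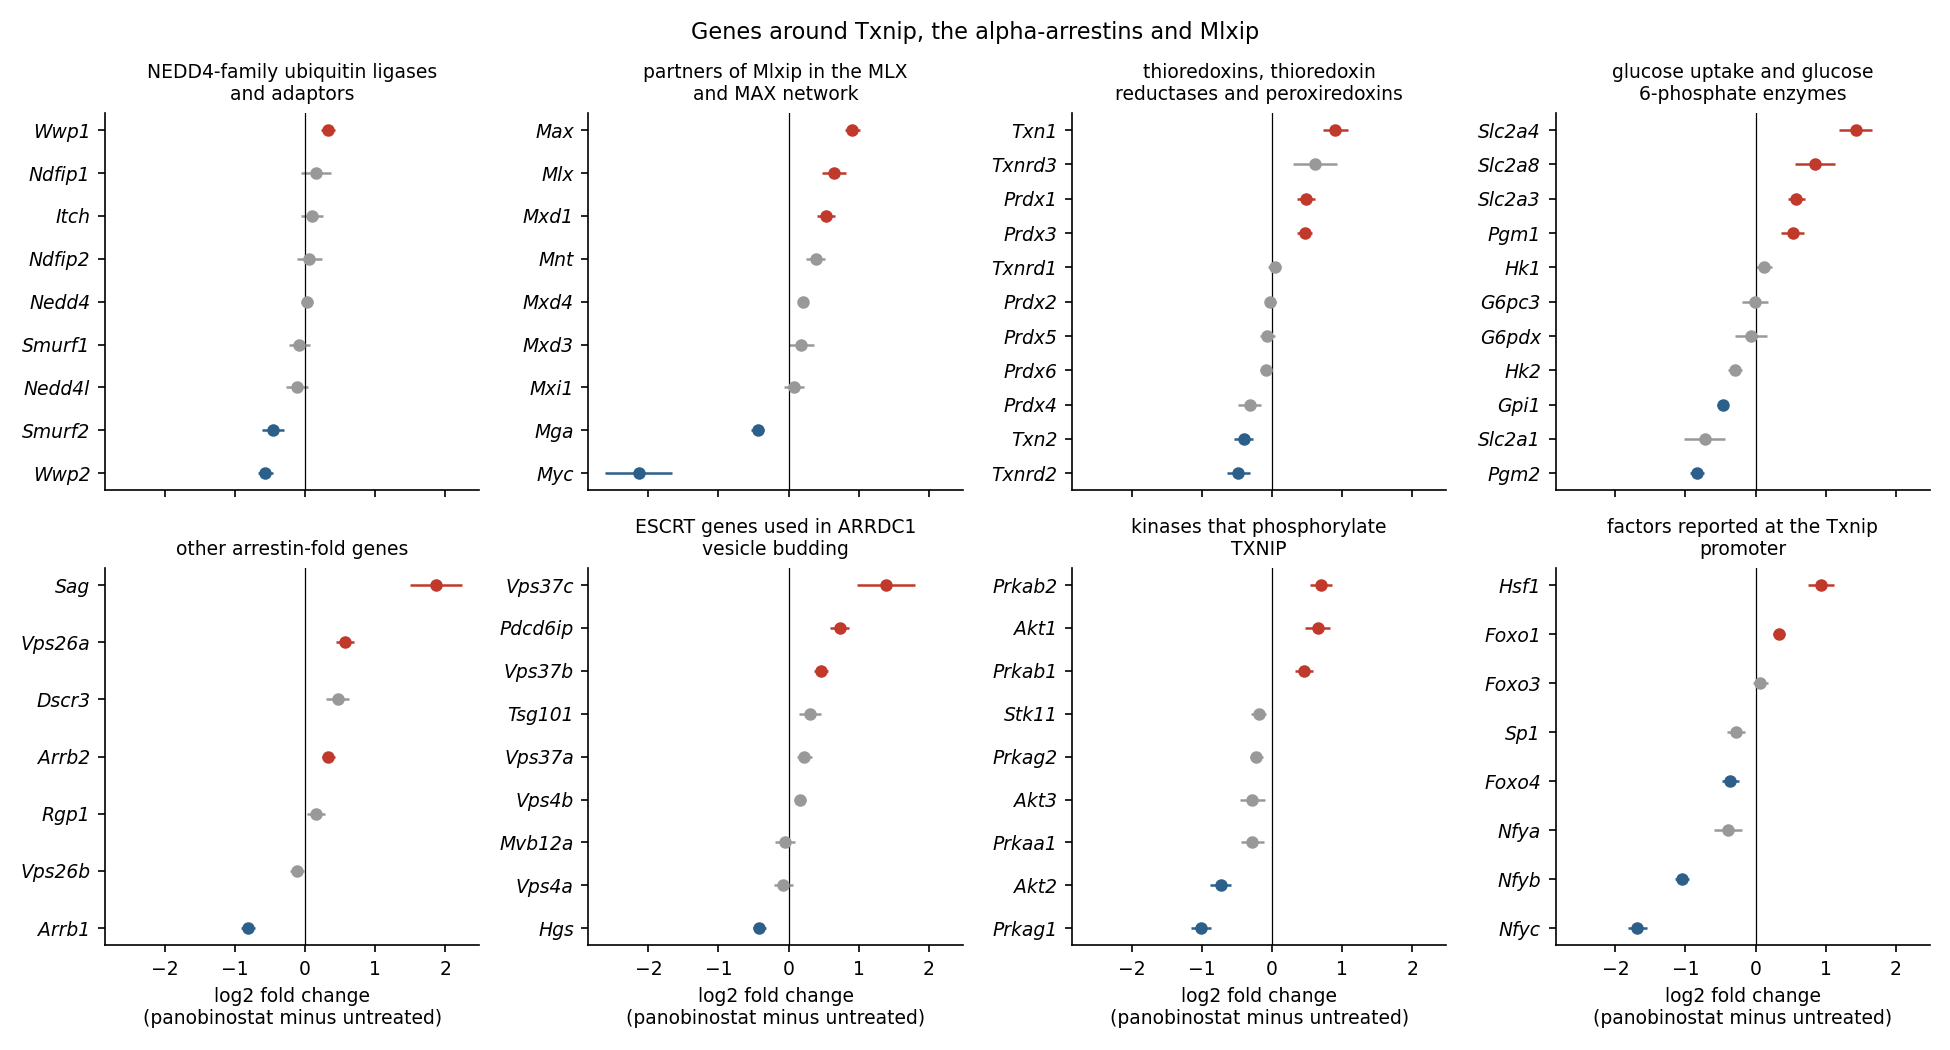
Log2 fold change (panobinostat minus untreated) with SE of each measured gene in the 8 lists, 1 panel per list (3 libraries per group). Red marks genes that rose, blue genes that fell (limma adjusted p below 0.05) and grey genes that did not pass, and every panel holds both colours, with Max, Txn1, Slc2a4, Sag, Vps37c and Hsf1 on the right and Nfyc, Nfyb, Prkag1 and Myc on the left.

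Genes next to these loci on the chromosome were looked up after the values were seen, taking the nearest tested gene on each side. Polr3gl, a subunit of RNA polymerase III encoded 15989 bases beyond Txnip, was at 4.24 ± 0.21 log2 CPM in panobinostat and 4.36 ± 0.11 log2 CPM in untreated libraries (SD, n = 3 each; log2 fold change -0.12, SE 0.14, limma adjusted p = 0.527). On the other side of Txnip the predicted gene Gm22614, 69064 bases away, was at 0.18 ± 0.48 (limma adjusted p = 0.788). Beside Mlxip, the SWI/SNF subunit gene Bcl7a fell by 1.16 ± 0.09 (limma adjusted p = 0.000253) and the apoptosis gene Diablo rose by 0.65 ± 0.10 (limma adjusted p = 0.00250). Beside Arrdc2, the interleukin 12 receptor gene Il12rb1 fell by 0.84 ± 0.24 (limma adjusted p = 0.0254) and Ccdc124 was at -0.07 ± 0.14 (limma adjusted p = 0.713). Of these 6 neighbours, Diablo alone was called higher, and Bcl7a and Il12rb1 were called lower. Of all tested genes 19.2% were called higher and 19.0% lower. Nearest to Arrdc1, Zmynd19 rose by 0.41 ± 0.14 (limma adjusted p = 0.0457) and Ehmt1 was at 0.39 ± 0.16 (limma adjusted p = 0.0896). For Arrdc4, Fam169b fell by 0.63 ± 0.08 (limma adjusted p = 0.00119) and Mctp2 was at 0.43 ± 0.47 (limma adjusted p = 0.503). For Arrdc3, Fam172a (-0.20 ± 0.12, limma adjusted p = 0.225) and Gm8399 (-1.34 ± 0.55, limma adjusted p = 0.0894) did not pass.

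The genes whose library-to-library pattern was most like that of each gene were found among 5758 tested genes of at least median level, leaving out the 6 genes themselves, predicted genes and pseudogenes known by their names, and symbols that read as dates, by the root mean square difference of the values centred on their mean over the 6 libraries. For Txnip these were Id3, which restrains E proteins (0.22 on the log2 scale), the F-box gene Fbxl12 (0.33) and the nuclear envelope gene Sun1 (0.37). Id3 stood at 5.90, 6.34 and 6.50 log2 CPM in panobinostat libraries 1 to 3, against 4.37, 3.33 and 3.32 log2 CPM in untreated libraries 1 to 3. The measure of likeness favours genes with a similar difference between the groups, which was known when the 6 genes were chosen. Log2 fold changes were 2.57 for Id3, 2.07 for Fbxl12 and 2.08 for Sun1, beside 2.68 for Txnip. The measure also favours genes with a high value in untreated library 1, as in Txnip. For Mlxip the nearest were Abhd2 (0.09), Tulp3 (0.10) and Trove2 (0.10). For Arrdc2 they were Tsnax (0.05), Arf4 (0.09) and Rbm34 (0.10), for Arrdc1 Rpl26 (0.02), Myo9b (0.03) and Ankrd26 (0.03), and for Arrdc3 Zfp36l2 (0.18), D1Ertd622e (0.19) and Rabgap1l (0.19). The points share 6 libraries, so a small difference describes these libraries and no more.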

How the data were processed

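The authors deposited 1 table of log2 values per gene symbol and library. Cutadapt 1.9, HISAT2 2.1.0, featureCounts (Subread 1.5.0), limma and build mm10 were used, per the submitters' processing notes, and which annotation and filters they applied was not given in the sources used here. That the values are log2 CPM, quantile normalized, was inferred: linear values summed to 994114 to 994182 per library, and sorted values lay within 0.05 of their common mean in all libraries for 87.6% of rows. A common shift of the whole transcriptome would not be visible in such values.

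Rows whose mean log2 reached 0 were tested (631 rows left out) with limma 3.58.1 (lmFit, eBayes with trend) in R 4.3.3, comparing 3 panobinostat with 3 untreated libraries, without a pseudocount. P-values were adjusted by Benjamini-Hochberg and called below 0.05. Reads were estimated from the first 200 steps between tied low values, at 6.01 to 7.74 reads per CPM. Columns were matched to samples by treatment and the sequencing sample number, since all sample titles carry the same replicate number. Tables were made with Python 3.11.15 and pandas 2.3.3. Promoters came from RefSeq (GRCm38.p6, the build of mm10), matched by symbol for all 6 genes, and gene positions from GENCODE M21.

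The genes and lists were chosen with earlier results of these data known. Named list genes were up to 4 per list by adjusted p, plus Mlx, Txn1, Txnrd1, Itch, Nedd4, Hk2, Slc2a1, Foxo1 and Nfya. Alternatives were other filters, scalings, spread models and weights, a pseudocount, a replicate block and each library left out.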

Additional observations from a re-analysis of the deposited data

How the results depend on the processing

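Over 14 alternatives, the log2 fold change of Txnip ranged from 2.37 to 3.14, that of Mlxip from 1.56 to 1.75 and that of Arrdc1 from -0.16 to -0.06. That of Arrdc2 ranged from 0.69 (a pseudocount of 1 CPM) to 1.17 (array weights), and with a mean log2 of at least 2 Arrdc2 was not tested. Arrdc3 ranged from -0.22 to 0.25. The count of genes higher in panobinostat was 2416, with 1587 to 2664 when 1 library was left out, lowest without panobinostat library 3. The count of genes lower was 2390, with 1636 to 2562. Array weights gave 3089 higher and 3018 lower. Of the list genes 22 rose and 15 fell, and 13 to 21 rose and 11 to 16 fell with 1 library left out. Causes were not tested. Whether the library numbers pair the samples is not known. Deviations from group means correlated at -0.0444, 0.104 and -0.0108 for same-numbered pairs, but so few libraries cannot decide it. A fit with the library numbers as a replicate block gave 2079 higher and 2069 lower genes, with 18 list genes higher and 12 lower. Arrdc2 and the list genes Arrb2, Foxo1, Foxo4, Prkab1, Txn2, Txnrd2, Vps37c and Wwp1 were not called in that fit, and Dscr3 was. Among named list genes, Arrb2, Foxo4, Prdx1 and Smurf2 were not called without the mean-variance trend, Slc2a1 and Hk2 were called with array weights, and Hk2 with robust moderation. Depth limits Arrdc2, with 8 to 28 estimated reads per library.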
